A study of Caenorhabditis elegans with 8 samples.

Results

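The synaptonemal complex and chromosome axis genes examined here were 10 of the 20191 genes in the count tables, chosen by name: syp-1, syp-2, syp-3 and syp-4, htp-1, htp-2, htp-3 and him-3, and rec-8 and coh-3. All 10 were found under these names. The values are small RNA reads per gene from whole bodies of Caenorhabditis elegans, a nematode, so each describes the small RNAs that map to a gene and not its messenger RNA or protein. Of the 8 libraries, 4 came from N2, the standard wild type, and 4 from strain YY1683, a zsp-1 mutant whose genotype label reads zap-1(-). Which allele this is, and what it does to the protein, was not stated in the sources used here. Within each strain 2 libraries came from animals on HT115 bacteria with the empty vector L4440 and 2 from animals on HT115 bacteria with double-stranded RNA of oma-1, a gene of maturing oocytes. All animals were grown at 20 °C, and the labels call them gravid adults of day 1 in one field and young adults in another. Whether the libraries of one group were grown as separate cultures is not stated, so a p-value here reflects the spread of the samples as deposited, and that spread may be technical.

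In meiotic prophase each chromosome is organised along a protein axis, which in C. elegans holds cohesin complexes and proteins with a HORMA domain. The synaptonemal complex then joins the axes of paired homologs along their length, and crossovers form within it. These structures form in the germ line. Many germline genes of C. elegans are templates for 22G siRNAs, antisense small RNAs made by RNA-dependent RNA polymerases and carried by Argonaute proteins such as CSR-1 and the WAGO proteins. ZSP-1, also known as PID-2, resides in Z granules, which are part of the germ granules where factors of this pathway gather.

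Library totals ran from 136908 to 340932 reads, and 1 read was worth 3.09 to 8.72 CPM (reads relative to the library's size after TMM, trimmed mean of M-values, scaling). The mutated gene, named pid-2 in the tables, held 94, 57, 116 and 92 small RNA reads in the wild-type libraries and 14, 2, 9 and 4 in the mutant libraries (log2 fold change -3.53, adjusted p = 8.08e-10, edgeR's quasi-likelihood test). Reads at oma-1 were 29 and 35 in wild type on L4440 and 5076 and 5789 on oma-1 RNAi, and 42 and 20 in the mutant on L4440 and 2541 and 3402 on oma-1 RNAi. Both genes went with the labels. Small RNA reads at muscle, intestine and hypodermis genes were few. The 10 muscle markers held 40 reads in all 8 libraries, with 6 of them at 0, among them the myosin genes myo-3, myo-1 and myo-2. The 10 intestine markers held 19 reads, and the 6 hypodermis and cuticle markers 22, with dpy-7, rol-6 and bli-1 at 0. The 8 neuron markers held more, 414 reads, and 3 of them could be tested. All 10 oocyte and maternal genes had enough reads to be tested.

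All 10 genes are protein-coding, and all lie on autosomes of build WBcel235 (coordinates from the count tables). The synaptonemal complex genes syp-1 (chromosome V, 16405751 to 16407699) and syp-2 (V, 5536681 to 5537713) lie on V, and syp-3 (I, 8663048 to 8664143) and syp-4 (I, 6847511 to 6849923) on I. The HORMA-domain genes htp-1 (IV, 5390184 to 5391557), htp-2 (IV, 6419500 to 6420898) and him-3 (IV, 6977517 to 6978943) lie on IV, and htp-3 (I, 4827072 to 4829794) on I. Of the cohesin genes, rec-8 (IV, 13348870 to 13353193) lies on IV and coh-3 (V, 14457475 to 14460136) on V. Exons covered from 890 bases at syp-3 to 2717 bases at rec-8, in 4 to 13 blocks. In the Ensembl annotation of the same build, him-3 overlaps prkl-1 on the opposite strand over 202 bases, and syp-3 overlaps mrt-1 on the opposite strand over 58 bases. prkl-1 held 2 reads in all libraries against 278 at him-3, and mrt-1 held 37 against 32 at syp-3. The other 8 genes overlap no annotated gene. htp-1 and htp-2 are close paralogs, as are coh-3 and coh-4, so reads of shared sequence could have been split between or dropped from them, and how the authors treated reads with several matches is not given in the sources used here.

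The 10 genes held 3283 reads over the 8 libraries, and each of the 10 lay above the median of all genes in small RNA level per kilobase, though not each above that of the tested genes. They took 0.180 ± 0.0235% of the reads in wild-type libraries and 0.179 ± 0.0244% in those of the mutant (SD, n = 4 each). htp-1 alone held 33.7% of the reads at these genes. The 4 HORMA-domain genes together held 65.9%, the 4 synaptonemal complex genes 20.3% and the 2 cohesin genes 13.8%. The HORMA-domain genes took 65.4 ± 0.677% of these reads in wild-type and 65.6 ± 3.095% in mutant libraries (SD, n = 4 each). In the same order the synaptonemal complex genes took 21.1 ± 0.751% and 19.8 ± 1.32%, and the cohesin genes 13.5 ± 1.33% and 14.6 ± 2.18%. The share of htp-1 alone was 32.3 ± 0.443% (31.9 to 32.9%) in wild type and 34.8 ± 2.29% (32.2 to 37.6%) in the mutant. These shares were not tested.

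**Figure D1:**
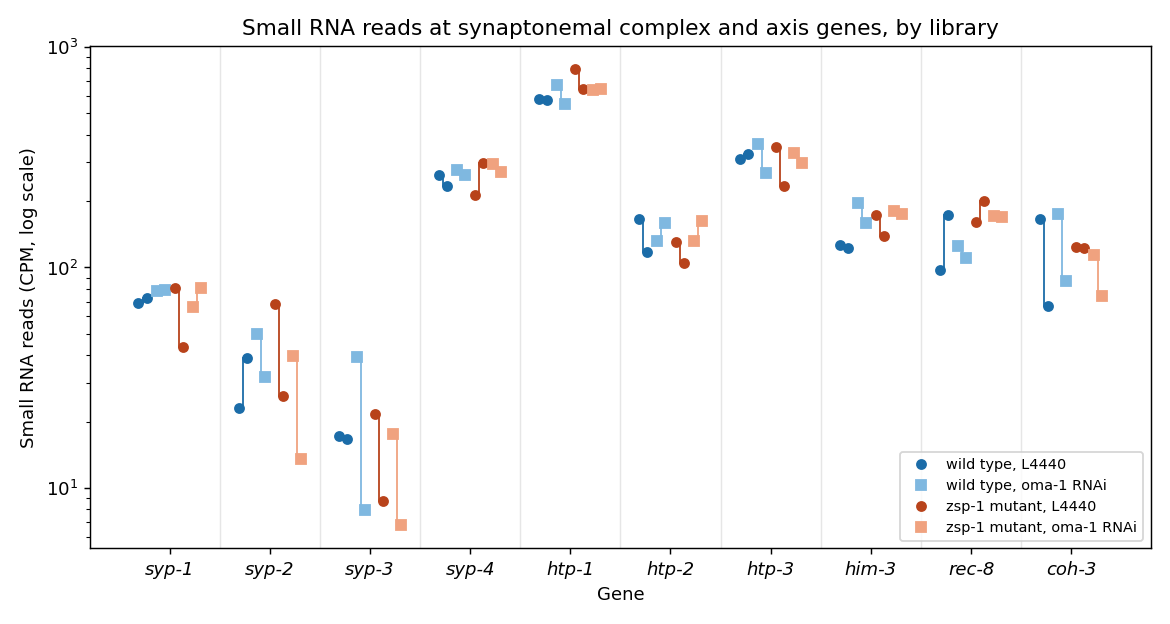
Small RNA reads at each of the 10 genes in CPM on a log axis, with 1 point per library and a line joining the 2 libraries of a group. CPM do not correct for gene length, so genes are not ranked here. htp-1 runs from 551 to 798 CPM and syp-3 from 6.75 to 39.2 CPM; the values of the 2 genotypes overlap at every gene.

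Levels were compared between genes as CPM per kilobase of exon, because the genes differ in length. In wild type htp-1 stood at 483 ± 43.3 CPM per kilobase (SD, n = 4), with a range of 446 to 545 that no other of the 10 genes reached. Next came htp-3 at 135 ± 16.7, him-3 at 129 ± 29.2, syp-4 at 127 ± 8.92 and htp-2 at 114 ± 18.2 CPM per kilobase (SD, n = 4 each). The ranges of these 4 genes overlapped from each to the next, so their order is not set beyond the spread of the libraries. The lower 5 were coh-3 at 60.0 ± 26.5, syp-1 at 47.5 ± 3.15, rec-8 at 46.5 ± 12.1, syp-2 at 40.1 ± 12.8 and syp-3 at 22.8 ± 14.96 CPM per kilobase (SD, n = 4 each), again with overlapping ranges from each to the next. A gap separated the upper and the lower 5, since htp-2 ranged over 93.0 to 132 and coh-3 over 32.4 to 84.6 CPM per kilobase.

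The mutant showed the same 3 tiers of level per kilobase. htp-1 stood at 553 ± 62.3 CPM per kilobase (SD, n = 4), above the range of every other gene. The middle tier held the same 4 genes, from him-3 at 143 ± 16.01 to htp-2 at 105 ± 18.7 CPM per kilobase (SD, n = 4 each). In the lowest tier rec-8, at 64.6 ± 6.39 CPM per kilobase, stood above coh-3, at 52.7 ± 11.3 (SD, n = 4 each), the reverse of their order in wild type, and the ranges of the pair overlapped in both genotypes. Of the 4 synaptonemal complex genes, syp-1, syp-2 and syp-3 thus lay in the lowest tier and syp-4 in the middle one. Over all 8 libraries htp-1 had a higher level per kilobase than 98.8% of the 20191 genes, him-3 than 95.2%, rec-8 than 87.4% and syp-3 than 73.3%. The median was 1.15 CPM per kilobase over all genes, of which 12819 held any read, and 59.8 over the 4567 genes with enough reads to be tested. Set against the tested genes, htp-1 was higher than 94.7%, him-3 than 78.7%, rec-8 than 46.4% and syp-3 than 5.65%. coh-3, rec-8, syp-1, syp-2 and syp-3 lay below the median of the tested genes.

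**Figure D2:**
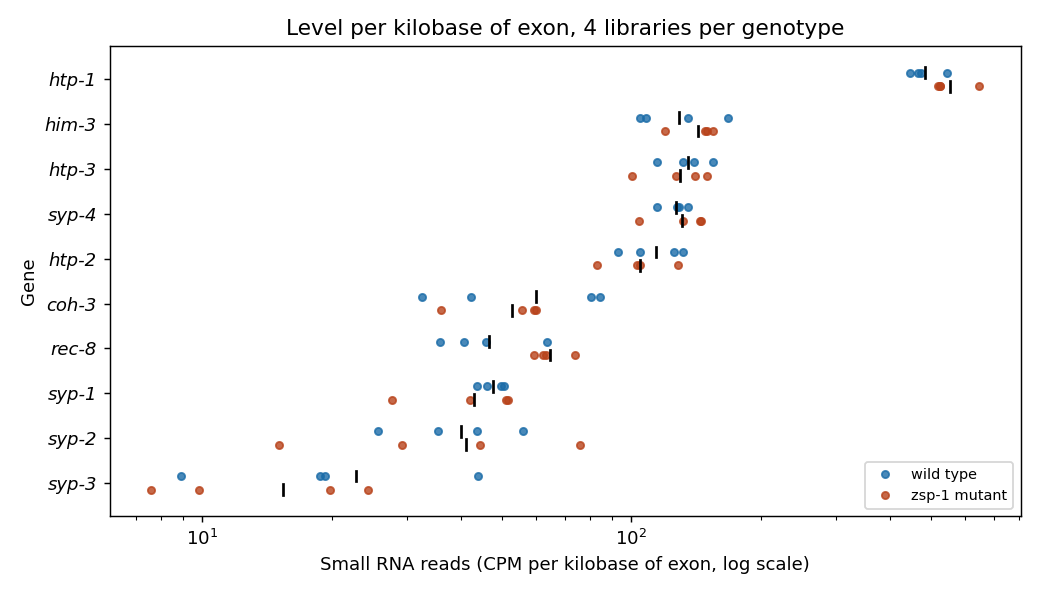
Level of each gene in CPM per kilobase of exon on a log axis, with 1 point per library, 4 per genotype, and a black bar at each mean. htp-1 lies at or above 446 in every library, 4 genes lie between 83.1 and 168, and the other 5 reach at most 84.6.

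The first question was whether small RNAs at these genes differ between the zsp-1 mutant and wild type. None of these genes passed the test in either direction, among the synaptonemal complex proteins, the HORMA-domain proteins or the cohesins. Averaged over both foods, 0 of the 9 genes that could be tested were called at an adjusted p under 0.05 in edgeR's quasi-likelihood test, while 23.1% of all 4567 tested genes were, 11.3% higher and 11.8% lower. The count of unadjusted p-values under 0.05 was also 0 among the 9, DESeq2 called 0, and the lowest adjusted p was 0.23. With the replicate number added to the edgeR fit, rec-8 had an unadjusted p of 0.0306 and an adjusted p of 0.0917. The median log2 fold change of the 9 was 0.03, beside -0.08 over all tested genes, and the median of its absolute size was 0.14, beside 0.35. At 0 of the 9 genes were the 4 mutant libraries all above or all below the 4 wild-type libraries in CPM, and 24.5% of tested genes were separated in this way. With 9 genes these counts describe the list and do not set it apart from others. In whole animals, fewer cells that hold such small RNAs and fewer small RNAs per cell cannot be told apart.

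The synaptonemal complex genes encode SYP-1, SYP-2, SYP-3 and SYP-4, which depend on each other to build the central region between the axes. syp-4, the highest of the 4 per kilobase, had 264 and 234 CPM in wild type on L4440, 278 and 261 in wild type on oma-1 RNAi, 213 and 297 in the mutant on L4440, and 295 and 270.2 in the mutant on oma-1 RNAi. The mutant values lay on both sides of the wild-type values, and the means were 259 ± 18.2 and 269 ± 38.9 CPM (SD, n = 4 each). This gave a log2 fold change of 0.03 (SE 0.23, adjusted p = 0.951), and its 95% interval allowed a fold of 0.741 to 1.41. syp-1 had 68.8 and 72.5 CPM in wild type on L4440, 78.3 and 79.2 in wild type on oma-1 RNAi, 80.4 and 43.6 in the mutant on L4440, and 66.1 and 81.1 in the mutant on oma-1 RNAi. The second mutant library on L4440 was lower than the rest and the others lay within a narrow band, with a log2 fold change of -0.09 (SE 0.30, adjusted p = 0.902) and an interval of 0.614 to 1.44-fold.

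syp-2 and syp-3 had few reads. syp-2 had 22.9 and 39.0 CPM in wild type on L4440, 49.8 and 31.7 in wild type on oma-1 RNAi, 68.0 and 26.2 in the mutant on L4440, and 39.6 and 13.5 in the mutant on oma-1 RNAi, from 2 to 22 reads per library. The genotypes overlapped, and the interval of the fold change, 0.567 to 2.13, was the widest of the 9, around a log2 value of 0.14 (SE 0.46, adjusted p = 0.901). It reached 10 reads in 2 libraries, the first of wild type on oma-1 RNAi and the first of the mutant on L4440. syp-3 had 1 to 11 reads per library, did not pass the filter on low counts and was not tested. Pooled reads came to 19 wild-type and 13 mutant ones, a ratio of 0.746 (exact 95% interval 0.339 to 1.59, counting error only, since reads amplified by PCR are not independent molecules). The spread between libraries is not in that interval, so it is not a limit of detection at syp-3.

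Among the HORMA-domain genes, HTP-3 is the axis protein on which the loading of the others depends, HIM-3 is needed for homologs to synapse and recombine, and HTP-1 restrains synapsis until homologs have paired, a task in which HTP-2 cannot replace it although both act in the stepwise release of cohesion. htp-1 had 585 and 574 CPM in wild type on L4440, 673 and 551 in wild type on oma-1 RNAi, 798 and 645 in the mutant on L4440, and 639 and 648 in the mutant on oma-1 RNAi. The first mutant library on L4440 was the highest, and the other 3 mutant libraries lay within the wild-type range. The means were 596 ± 53.5 CPM in wild type and 682 ± 76.9 CPM in the mutant (SD, n = 4 each). This is a log2 fold change of 0.20 (SE 0.21, adjusted p = 0.622) with an interval of 0.849 to 1.55-fold.

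htp-2 had 166 and 117 CPM in wild type on L4440, 132 and 158 in wild type on oma-1 RNAi, 129.9 and 105 in the mutant on L4440, and 132 and 162 in the mutant on oma-1 RNAi. Its groups overlapped, with a log2 fold change of -0.11 (SE 0.25, adjusted p = 0.845). htp-3 had 309 and 329 CPM in wild type on L4440, 363 and 269 in wild type on oma-1 RNAi, 352 and 235.5 in the mutant on L4440, and 330.3 and 297 in the mutant on oma-1 RNAi, also with overlapping groups and a log2 fold change of -0.04 (SE 0.23, adjusted p = 0.938). him-3 had 126 and 123 CPM in wild type on L4440, 196 and 158 in wild type on oma-1 RNAi, 173 and 139.5 in the mutant on L4440, and 181 and 176 in the mutant on oma-1 RNAi. The wild-type libraries on L4440 were the lowest of the 8 and the first wild-type library on oma-1 RNAi was the highest, with the mutant libraries between. Its log2 change was 0.19 (SE 0.24, adjusted p = 0.7). The intervals allowed a fold of 0.652 to 1.32 at htp-2, 0.701 to 1.34 at htp-3 and 0.812 to 1.59 at him-3.

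Because htp-1 and htp-2 are alike, their reads were also set against each other. htp-1 held 4.25 ± 0.876 times the reads of htp-2 in wild type and 5.29 ± 1.06 times in the mutant (SD, n = 4 each). On L4440 the mutant ratios were 6.14 and 6.17, above the wild-type range of 3.475 to 5.11. On oma-1 RNAi they were 4.83 and 4.0, within that range. With both foods pooled, the log2 of this ratio was not called between genotypes (mutant minus wild type 0.31, p = 0.229, adjusted p = 0.457 over 2 ratios, exact permutation test, two-sided). Counted as 1 feature, the pair had a log2 fold change of 0.14 (SE 0.21, adjusted p = 0.744, edgeR), which was not called either.

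REC-8 and COH-3 are meiotic kleisins, the subunits that close the cohesin ring, and COH-3 acts redundantly with its paralog COH-4. rec-8 had 97.4 and 173 CPM in wild type on L4440, 125 and 111 in wild type on oma-1 RNAi, 161 and 201 in the mutant on L4440, and 172 and 169 in the mutant on oma-1 RNAi. All 4 mutant libraries were above 3 of the 4 wild-type libraries, and the second wild-type library on L4440 reached into the mutant range. The means were 126 ± 32.8 CPM in wild type and 175 ± 17.4 CPM in the mutant (SD, n = 4 each). With a log2 fold change of 0.45 (SE 0.25, adjusted p = 0.23) and an interval of 0.961 to 1.95-fold, it had the smallest p of the 9 and was not called. coh-3 had 166 and 66.9 CPM in wild type on L4440, 174 and 87.2 in wild type on oma-1 RNAi, 124 and 122 in the mutant on L4440, and 114 and 74.3 in the mutant on oma-1 RNAi. Its wild-type libraries split into a high and a low one on each food, and the mutant libraries lay between these extremes. The log2 value was -0.18 (SE 0.30, adjusted p = 0.786), with an interval of 0.578 to 1.35-fold.

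The paralog coh-4 had 103 and 106 CPM in wild type on L4440, 146 and 118.9 in wild type on oma-1 RNAi, 142 and 69.8 in the mutant on L4440, and 163 and 115 in the mutant on oma-1 RNAi, with a log2 fold change of 0.12 (SE 0.26, adjusted p = 0.839). It overlaps Y45G5AM.7 on the same strand, with 103 reads at that gene against 216 at coh-4, so coh-4 reads are uncertain between them. The ratio of coh-3 to coh-4 reads was 1.04 ± 0.451 over the wild-type libraries against 0.992 ± 0.514 over the mutant ones (SD, n = 4 each), with p = 0.886 and adjusted p = 0.886 for its log2 (exact permutation test, two-sided). Counted as 1 feature, coh-3 and coh-4 had a log2 fold change of -0.03 (adjusted p = 0.957, edgeR).

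**Figure D3:**
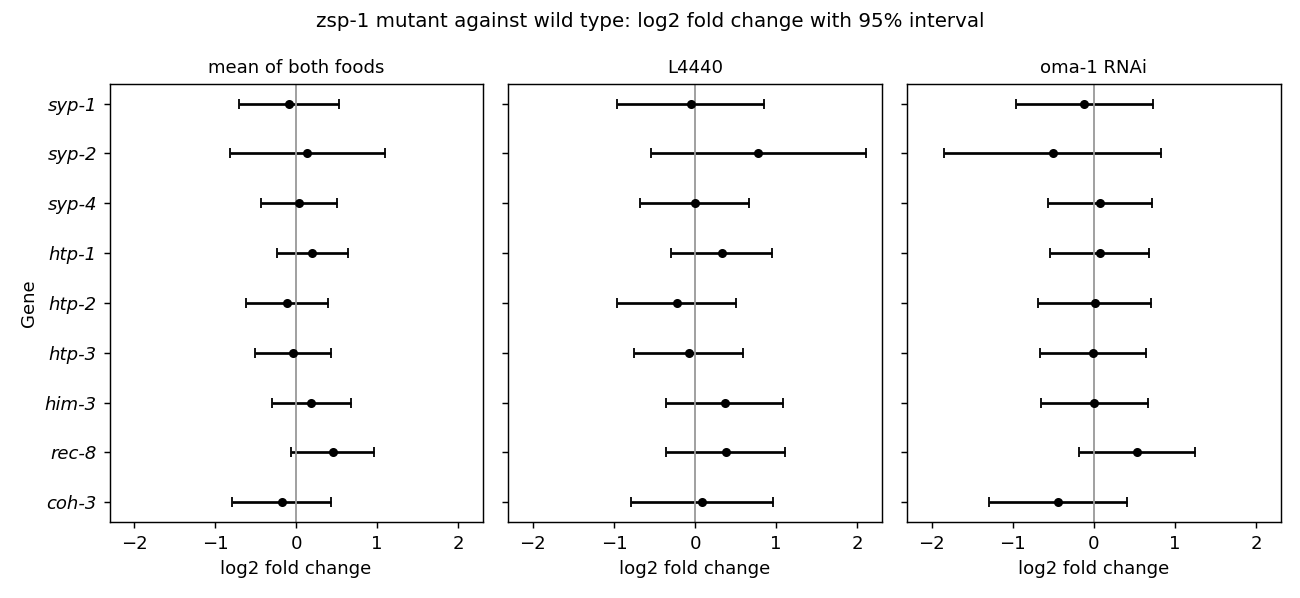
Log2 fold change of the zsp-1 mutant against wild type at the 9 tested genes, with 95% intervals from the edgeR fit, averaged over both foods and on each food. Every interval spans 0; rec-8 has the largest averaged value, 0.45, and syp-2 the widest intervals.

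On each food alone, the genotype comparison also gave no call. On L4440, 0 of 9 genes were called, beside 16.4% of all tested genes (8.74% higher, 7.66% lower), and on oma-1 RNAi 0 of 9, beside 15.7% (8.36% higher, 7.38% lower; edgeR). The count at an unadjusted p under 0.05 was 0 of 9 on either food, and DESeq2 called 0 on either. Log2 fold changes ran from -0.23 to 0.78 on L4440 and from -0.51 to 0.53 on oma-1 RNAi. rec-8 was positive on both foods, 0.38 and 0.53, whereas syp-2 was 0.78 on L4440 and -0.51 on oma-1 RNAi, with SE of 0.64 and 0.65. The intervals are wider here than in the average because each arm has 2 libraries.

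The second question was whether feeding of oma-1 double-stranded RNA moves small RNAs at these genes. In wild type 0 of 9 genes were called, beside 0.0438% of all tested genes, and in the mutant 0 of 9, beside 0.0438% (edgeR), where the called genes were 2 of 4567 each time. Log2 fold changes on oma-1 RNAi ran from -0.20 at rec-8 to 0.51 at him-3 in wild type, and from -0.89 at syp-2 to 0.27 at htp-2 in the mutant. The him-3 value in wild type came from 196 and 158 CPM on oma-1 RNAi and 126 and 123 CPM on L4440 (SE 0.34, adjusted p = 0.999, edgeR). By the test of the difference between the responses of the genotypes, 0 of the 9 were called, beside 0% of all tested genes. At htp-1, the gene with the most reads, the difference of the responses was -0.26 with a 95% interval of -1.13 to 0.62 on the log2 scale. For both responses and their difference the count at an unadjusted p under 0.05 was 0 of 9, and DESeq2 called 0 of 9 in each.

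Summed over the 10 genes, the libraries held 1823 and 1745 CPM in wild type on L4440, 2108 and 1716 in wild type on oma-1 RNAi, 2121 and 1823 in the mutant on L4440, and 1986 and 1898 in the mutant on oma-1 RNAi. The library numbered 1 held the larger sum in all 4 groups, and the genotypes overlapped. Among the 9 tested genes, him-3 and coh-3 were higher in the library numbered 1 in all 4 groups and 0 of 9 were lower in all 4, beside 12.6% and 17.6% of all tested genes. syp-3, which was not tested, was also higher in CPM in the library numbered 1 in all 4 groups. In wild type on L4440 the reads were equal at him-3 (22 and 22) and at syp-3 (3 and 3). The order of these 2 genes in that group thus came from the library scaling alone. Library totals did not follow the numbers in wild type on L4440, where the first library was the smaller. The part of the replicate number in these sums was not tested.

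**Figure D4:**
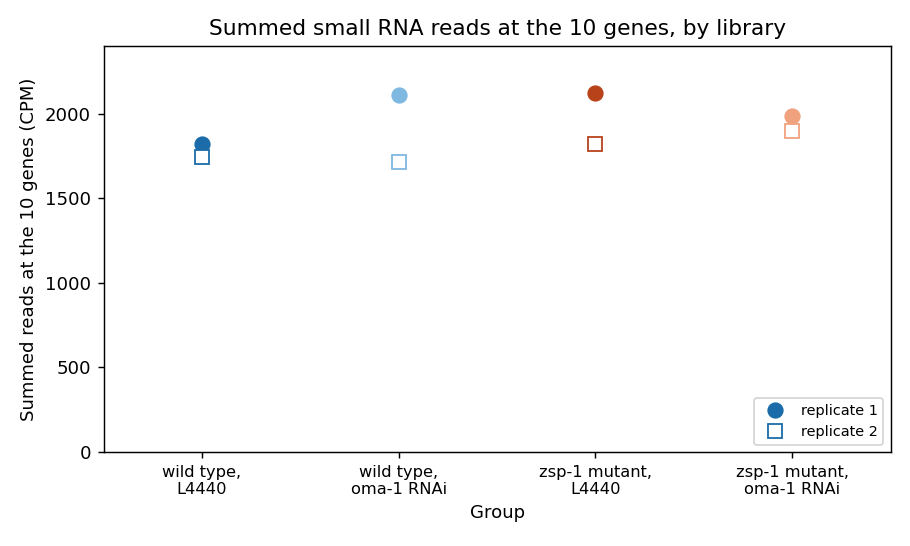
Summed CPM at the 10 genes in each of the 8 libraries, with filled circles for replicate 1 and open squares for replicate 2 of each group. The circle lies above the square in every group, and the sums run from 1716 to 2121 CPM over both genotypes.

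The spread between the libraries of a group was near that of counting for most of these genes. Chi-square per degree of freedom within groups, which is near 1 when only counting error is present, was 0.411 at him-3, 0.479 at syp-1, 1.46 at htp-1 and 1.92 at htp-3. The median over the 9 tested genes was 1.18, beside 1.52 over all tested genes. coh-3 stood apart at 4.15, from 29 and 12 reads in wild type on L4440 and 49 and 22 in wild type on oma-1 RNAi. Its paralog coh-4 had 1.45, and its reads were 18 and 19, and 41 and 30, in the same libraries.

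Other genes of meiotic chromosomes were set beside these 10, in 7 lists of 90 genes, of which 87 were found and 67 tested. Averaged over both foods 2 rose in the mutant and 0 fell, beside 11.3% higher and 11.8% lower of all tested genes, with a median log2 fold change of -0.02. The larger rise was at rec-1, which encodes a protein that shapes where crossovers form and is a paralog of the break-promoting protein HIM-5. rec-1 held 20, 26, 36 and 46 reads in the wild-type libraries and 249, 132, 165 and 149 in the mutant libraries. Its level went from 142 ± 29.3 to 914 ± 201 CPM (SD, n = 4 each), 6.36-fold (log2 2.67, SE 0.25, adjusted p = 3.88e-09, edgeR), and every mutant library was above every wild-type library. Among the alternatives run it was always called (log2 2.53 to 2.82). It was called on both foods, with log2 fold changes of 2.86 on L4440 and 2.47 on oma-1 RNAi, and it overlaps no annotated gene (chromosome I, 717893 to 719816). him-5 had 20 wild-type and 21 mutant reads in all and was not tested.

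him-8, whose zinc-finger protein binds the pairing centre of the X chromosome, was the other rise (log2 1.01, SE 0.27, adjusted p = 0.00523, edgeR). Its level was 63.0 ± 1.18 CPM in wild type against 125 ± 24.6 in mutants (SD, n = 4 each). It was called on L4440 and not on oma-1 RNAi, and the averaged call was lost with DESeq2 (adjusted p = 0.0702). The other 9 tested pairing genes and the other 7 tested genes of double-strand breaks were not called, and neither list held a fall. The medians were -0.01 and 0.13 on the log2 scale.

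In the remaining lists no gene was called. Of the other synaptonemal complex genes 1 of 4 was tested, syp-6 (log2 0.38, SE 0.26, adjusted p = 0.385), which encodes a further central region protein together with its paralog syp-5; syp-5 held 26 and 26 reads in the 2 genotypes and was not tested. Of the other cohesin and axis genes 9 were tested, with a median of 0.12, and smc-3, which encodes a core cohesin subunit, had the smallest p (log2 -0.44, SE 0.27, adjusted p = 0.302). The 17 tested genes of recombination and crossovers had a median of -0.09, and the nuclease gene xpf-1 came closest to a call (log2 -0.76, SE 0.29, adjusted p = 0.0652). xpf-1 overlaps inos-1 on the opposite strand over 1984 bases and the piRNA 21ur-14685 on the same strand over 21 bases. Its reads are thus uncertain between the overlapping genes, and it passed with library totals (adjusted p = 0.0385). The 13 tested genes of the axis checkpoint and cohesin release had a median of -0.05, with the smallest p at the phosphatase gene gsp-1 (log2 -0.46, SE 0.29, adjusted p = 0.333). The 9 condensin genes had a median of 0.16, with the smallest p at hcp-6 (log2 0.35, SE 0.24, adjusted p = 0.365). Adjusted p-values are from edgeR over all 4567 genes.

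**Figure D5:**
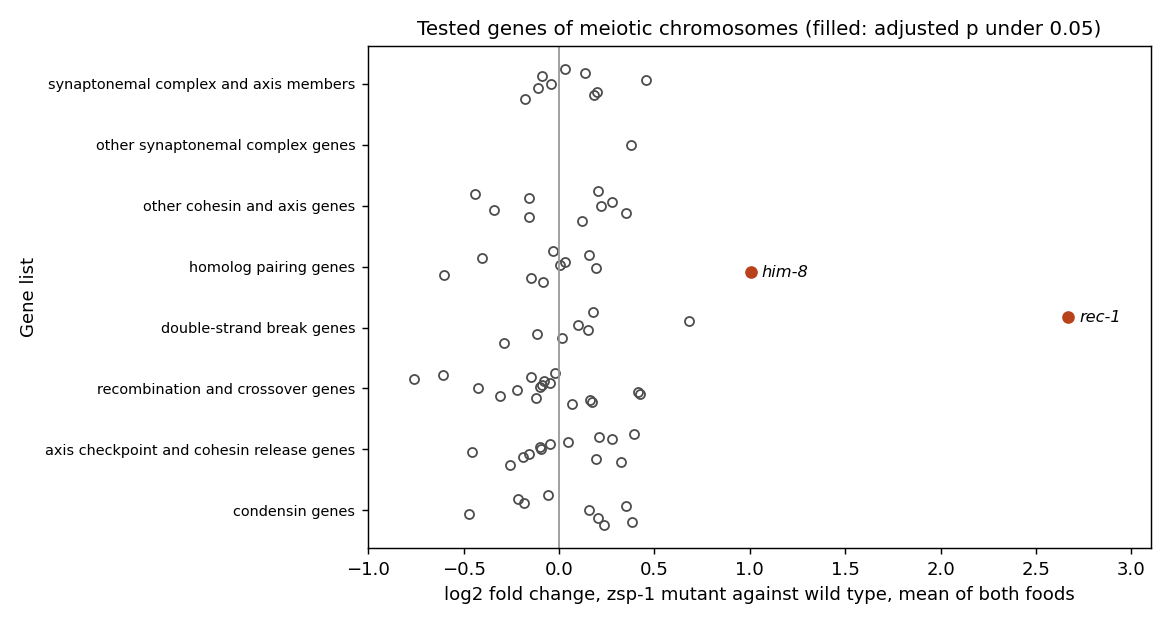
Log2 fold change of the zsp-1 mutant against wild type, averaged over both foods, for each tested gene of the 10 members and of the 7 other lists of meiotic chromosome genes, with 1 point per gene. Filled points passed an adjusted p of 0.05: rec-1 at 2.67 and him-8 at 1.01; the members lie between -0.18 and 0.45.

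Lists of other germ cells and tissues held calls in both directions, to be read beside the 23.1% of all tested genes called (11.3% higher, 11.8% lower). Of 4 tested sperm genes 2 rose, spe-15 (log2 6.69, SE 0.39, adjusted p = 9.48e-13) and spe-41 (log2 1.02, SE 0.24, adjusted p = 0.00183), and 2 fell, spe-47 (log2 -2.26, SE 0.37, adjusted p = 2.19e-05) and ssp-16 (log2 -2.27, SE 0.57, adjusted p = 0.00353). spe-15 overlaps gst-25 over 1990 bases and the ncRNA F47G6.6 over 100 bases, both on the opposite strand. It also overlaps a tRNA gene on the same strand over 73 bases, so its reads are uncertain between the overlapping genes. spe-47 overlaps the ncRNA Y23H5A.9 on the opposite strand over 103 bases. ssp-16 held 97 reads in the first wild-type library on L4440 and 6 to 38 in the other wild-type libraries, and its call was lost with DESeq2 (adjusted p = 0.149), without that library (0.123) and without the first wild-type library on oma-1 RNAi (0.219). The summed level of the 8 sperm markers ran from 333 to 814 CPM in wild type and from 1224 to 2337 CPM in the mutant, with msp-10, msp-113 and spe-9 at 0. Without spe-15 the direction of the mean turned: the other 7 summed to 471 ± 229 CPM in wild type against 391 ± 89.5 in mutants (SD, n = 4 each), with overlapping ranges. Of 3 tested neuron markers 2 rose, ric-19 (log2 5.73, SE 0.81, adjusted p = 4.21e-06) and egl-21 (log2 1.48, SE 0.30, adjusted p = 0.000414), and the summed level of the 8 ran from 120.4 to 218 CPM in wild type and from 238 to 497 CPM in the mutant, with snt-1 at 0. Of the 10 oocyte and maternal genes daz-1 fell (log2 -0.80, SE 0.28, adjusted p = 0.037), a call lost with DESeq2 (adjusted p = 0.234), and 9 were not called. Their part in the values of the synaptonemal complex and axis genes was not tested.

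rec-8, with the smallest p of the 9, was compared with all other tested genes for its pattern over the 8 libraries. By the root mean square difference of centred log2 CPM, C48B4.11 (0.110) and C46C2.3 (0.152) were the most alike. They were picked as the smallest values, so lying below the median of 0.521 over tested genes follows from the choice. Neither was called between genotypes (adjusted p = 0.403 and 0.123, edgeR).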

How the data were processed

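Deposited were raw counts: for each of 20191 genes and 8 libraries, the whole number of small RNA reads, with no normalisation. Per the labels' protocols, small RNAs of about 18 to 35 nt were cut from a gel of 20 µg of total RNA and cloned without need of a 5′ monophosphate. Per the submitters' processing notes, cutadapt 1.14, TopHat2 2.1.1 and featureCounts 1.6.0 were used with build WBcel235. The strand setting and the handling of reads with several matches were not stated in the sources used here, so sense and antisense reads cannot be told apart. Groups came from the sample titles.

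The analysis used edgeR 4.0.16 under R 4.3.3, with filterByExpr with a minimum count of 10 (4567 genes kept), TMM scaling, and a quasi-likelihood fit of 4 group means to all 8 libraries, with 4 residual degrees of freedom. P-values were adjusted by Benjamini-Hochberg over all tested genes and called under 0.05. Each SE was obtained from the log2 fold change and its F statistic, and 95% intervals use it. Alternatives were DESeq2 1.42.0, other scalings, no filter, each library left out, the replicate block, summed paralogs and fits to 4 libraries. The fit was tested on simulated data for the averaged genotype comparison: it called 37 of 50 genes changed 2-fold, 50 of 50 changed 4-fold and 8 of 4139 unchanged genes. Precision is limited by 136908 to 340932 reads per library.

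The members and lists were chosen with earlier results of these data known. Named genes are the 10 members, oma-1, oma-2, the zsp-1 gene and coh-4, from each list up to 4 called genes or else that with the smallest p, and the 2 genes most like the member with the smallest p; him-5 and syp-5 and the markers at 0 were named after their values were seen. oma-2 had 13, 16, 24 and 25 reads in wild type and 18, 11, 9 and 10 in the mutant and was not called. Listed genes absent by name were matched by coordinates (syp-5, syp-6, scc-2, rad-54.L and sep-1), and hpo-1, hal-1 and slx-4 had no match. The planned comparison of sequence shared between paralogs was not run.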

Additional observations from a re-analysis of the deposited data

Results flagged for a closer look

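In the 4 mutant libraries htp-1 had 1 library far from the others: the first on L4440 stood at 798 CPM, and the other 3 lay between 639 and 648 CPM. It is the deepest library, with 340932 reads. Of 20 sets of 4 libraries examined this was 1 flag, and chance flags about 1 in 20. Without that library htp-1 was not called either (log2 fold change 0.13, adjusted p = 0.857, edgeR).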

How the results depend on the processing

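Of the 9 tested genes 0 were called in any of the 6 comparisons under each alternative run that kept them, and syp-3 could be fitted only with no filter on low counts, where it was not called. Over 728 values of single genes in these alternatives 83 differed in sign from the reported value, the largest at 0.58 on the log2 scale. In the averaged genotype comparison rec-8, htp-1 and him-3 kept a positive sign in every alternative and were not called. The nearest to a call was rec-8 averaged over both foods without the second wild-type library on L4440 (log2 0.71, adjusted p = 0.0668, edgeR), and over all alternatives its log2 ran from 0.31 to 0.71 and its adjusted p from 0.0668 to 0.534. Without the first mutant library on L4440 syp-2 did not pass the filter. Counts over all genes depended more on the settings. On L4440 the genotype comparison called 749 genes, 482 with DESeq2 and 482 to 790 when single libraries were left out, lowest without the first mutant library on L4440. On oma-1 RNAi it called 719, and 462 to 820 when single libraries were left out, lowest without the second wild-type (462) or the first mutant library (467) on that food. The wild-type response to oma-1 RNAi went from 2 calls to 26 with no filter on low counts and to 75 without the second wild-type library on L4440, over a range of 2 to 75. The difference of the responses went from 0 calls to 1 with no filter and to 0 to 6 when single libraries were left out. Averaged over both foods the genotype comparison called 1056 genes, and 792 with DESeq2. Scaling by library totals moved the averaged split from 516 higher and 540 lower to 477 and 675. With the replicate block, the replicate number added to the fit, the genotype comparison called 1361 genes averaged, 1025 on L4440 and 996 on oma-1 RNAi. In that fit the wild-type response had 24 calls, the mutant response 12 and the difference 2, and 0 members were called. Same-numbered libraries deviated together with correlations of 0.171 to 0.347 across genes, with 2 numbers a group and no label that ties them. Alternatives for genes outside the 10 were added after seeing the data: xpf-1 also passed with the replicate block (adjusted p = 0.031) and without the first mutant library on oma-1 RNAi (0.0408), and daz-1 lost its call without any 1 of 4 libraries (adjusted p 0.0781 to 0.187), with no filter (0.0796) and with median-of-ratios size factors (0.052). At this depth syp-2 and syp-3 carry the least information. None of the values that follow was called, and the cause of each change in sign was not tested. For genotype averaged the log2 values with single libraries left out were -0.39 to 0.06 at syp-1, -0.39 to 0.39 at syp-2, -0.05 to 0.18 at syp-4, -0.20 to 0.05 at htp-2, -0.21 to 0.10 at htp-3, -0.41 to 0.26 at coh-3, -0.70 to 0.00993 at gsp-1. For genotype on L4440 the log2 values with single libraries left out were -0.68 to 0.22 at syp-1, -0.18 to 0.27 at syp-4, -0.42 to 0.04 at htp-2, -0.43 to 0.18 at htp-3, -0.40 to 0.87 at coh-3. For genotype on oma-1 RNAi the log2 values with single libraries left out were -0.22 to 0.06 at syp-1, -0.05 to 0.23 at htp-1, -0.12 to 0.18 at htp-2, -0.19 to 0.23 at htp-3, -0.12 to 0.18 at him-3, -0.82 to 0.16 at coh-3. For RNAi in wild type the log2 values with single libraries left out were -0.06 to 0.21 at htp-1, -0.16 to 0.27 at htp-2, -0.24 to 0.18 at htp-3, -0.59 to 0.31 at rec-8, -0.40 to 0.92 at coh-3. For RNAi in the mutant the log2 values with single libraries left out were -0.15 to 0.74 at syp-1, -0.05 to 0.41 at syp-4, -0.31 to 0.00919 at htp-1, -0.16 to 0.43 at htp-3, -0.22 to 0.08 at rec-8. For the difference of the RNAi responses the log2 values with single libraries left out were -0.32 to 0.58 at syp-1, -0.17 to 0.28 at syp-4, -0.16 to 0.44 at htp-3, -0.34 to 0.58 at rec-8, -1.23 to 0.06 at coh-3. With library totals the sign changed at syp-4 (-0.09, genotype averaged), at coh-3 (-0.06, genotype on L4440), at syp-4 (-0.02, genotype on oma-1 RNAi), at htp-1 (-0.03, genotype on oma-1 RNAi), at htp-2 (-0.09, genotype on oma-1 RNAi), at him-3 (-0.09, genotype on oma-1 RNAi). With median-of-ratios size factors the sign changed at htp-3 (0.000948, genotype averaged), at syp-4 (0.02, genotype on L4440), at htp-3 (0.05, genotype on oma-1 RNAi). With no filter on low counts the sign changed at htp-3 (0.0041, genotype averaged), at syp-1 (0.00669, genotype on L4440), at syp-4 (0.04, genotype on L4440), at htp-3 (0.03, genotype on oma-1 RNAi), at htp-3 (0.02, RNAi in wild type). With DESeq2 the sign changed at syp-4 (0.03, genotype on L4440), at htp-3 (0.05, genotype on oma-1 RNAi), at syp-1 (0.03, the difference of the RNAi responses). With the replicate block the sign changed at coh-3 (-0.04, genotype on L4440), at htp-2 (-0.00121, genotype on oma-1 RNAi), at him-3 (-0.00384, genotype on oma-1 RNAi). From the 4 libraries compared alone the sign changed at htp-2 (-0.00995, genotype on oma-1 RNAi), at him-3 (-0.00941, genotype on oma-1 RNAi). The summed feature of a paralog pair, which is not a value of either gene alone, had the other sign than the single gene for htp-2 (0.14, genotype averaged), for htp-2 (0.23, genotype on L4440), for htp-2 (-0.10, RNAi in the mutant), for coh-3 (0.00703, RNAi in the mutant), for htp-2 (-0.17, the difference of the RNAi responses).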
